A study of Mus musculus with 6 samples.

Results

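Calcium handling genes were examined in purified mouse platelets, blood cells without a nucleus that are shed by megakaryocytes. The 10 genes were chosen by name for their roles in calcium release, entry, extrusion and calcium-gated lipid scrambling. They are Itpr1, Itpr2, Itpr3, Stim1, Orai1, Atp2a2, Atp2a3, Atp2b1, Atp2b4 and Ano6, and all 10 had a row among the 9822 genes of the deposited count tables. The choice was made with earlier results of these data known. Mutant platelets came from BalB/c males heterozygous for the C587R allele (Nxf1+/C587R) of Nxf1, which encodes the main mRNA export receptor. Wild-type platelets came from littermates on the same BalB/c background, and their libraries also belong to another series. Each of the 3 mutant and 3 wild-type libraries is a pool of suspensions in which over 98% of flow cytometry events were CD41+ platelets, with 1 pool per genotype on each of 3 preparation days. The sources used here give neither the age of the mice nor the number of animals per pool.

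Calcium is the second messenger of platelet activation. Phospholipase C makes inositol trisphosphate (IP3), IP3 receptors then open the stores of the dense tubular system, STIM1 senses the emptied store, and ORAI1 is the plasma membrane channel that STIM1 opens. SERCA pumps return calcium to the store and PMCA pumps expel it from the cell. Sustained high calcium also activates anoctamin 6, the scramblase that exposes phosphatidylserine on procoagulant platelets and whose loss causes Scott syndrome in humans.

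The libraries held 25189231 to 29421549 counts. Levels are given as counts per 1000000 (CPM) of totals scaled by the trimmed mean of M values (TMM), and levels of different genes are compared as that CPM per 1000 bases of the deposited gene length (RPKM). All 12 platelet markers listed, Itga2b and Pf4 among them, had rows, and their summed level was 43762 to 48418 CPM in mutant pools and 34648 to 41918 CPM in wild-type pools, with 5 called higher and 2 lower (8 and 2 by edgeR when the day was a block). The 12 B cell markers summed to 298 to 369 CPM in mutant pools and 381 to 508 CPM in wild-type pools, with 5 of them lower and 0 higher by the test used below, and 9 lower with the block. The 10 T and NK cell markers with rows summed to 26.3 to 30.2 CPM in mutant pools and 27.6 to 35.1 CPM in wild-type pools, with none called by that test, and 1 higher (Nkg7) and 3 lower (Cd8a, Trac and Cd2) with the block. The 8 red cell markers with rows were high in both pools of day 1 (31537 CPM mutant, 35728 CPM wild type) and lay between 3991 and 4578 CPM in the other 4 libraries, with 1 called higher and 0 lower, and 3 higher and 1 lower with the block. Of the 12 neutrophil and monocyte markers, 6 had rows (Mpo, Elane and Ly6g not among them), of which 1 was higher, 1 lower and 4 were not called. Lyz2 held most of their sum, at 1765 to 2080 CPM in mutant pools and 1148 to 1587 CPM in wild-type pools, while Fcgr1 averaged 20.7 CPM in mutant pools and 33.0 CPM in wild-type pools (log2 fold change -0.67, adjusted p = 0.000406 by edgeR). The part of these cells in the results below was not tested, and in bulk RNA fewer cells of a type and less RNA per cell cannot be told apart. Nxf1 itself averaged 3.29 CPM in mutant pools and 3.73 CPM in wild-type pools (log2 fold change -0.19, adjusted p = 0.604 by edgeR).

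In mutant platelets 3 of the 10 calcium genes rose and 0 fell. They were Atp2a3, the SERCA3 pump gene, Stim1 and Orai1. The test was edgeR's quasi-likelihood test with Benjamini-Hochberg adjustment over all 9822 genes at 0.05, which called 22.1% of all genes (12.9% higher, 9.16% lower). Those were 1266 genes higher and 900 lower, and 723 higher and 755 lower when scaling and test were restricted to genes averaging 10 CPM or more. The pools of the genotypes were fully separated for the same 3 genes, all higher in the mutant, and for 36.3% of all genes (20.4% higher, 15.9% lower). The sign was the same on all 3 days for 4 members that were higher (30.1% of all genes) and 1 that was lower (30.7%). The share of the calcium genes called was 30%, beside 22.1% of all genes in either direction and 12.9% higher. With only 10 genes, chosen with earlier results known, this does not set them apart as a group. With the day as a block, 3 were called higher and 1 lower, where 40.0% of all genes were called by edgeR (22.0% higher, 18.0% lower). Their median log2 fold change was 0.05, beside -0.04 for all genes. All 3 called genes were among the 5 members with a mean of at least 10 CPM, and the other 5 members lay below that level. In the fit restricted to the 3017 genes at that level, 1478 were called. Of the 5 members there, 3 were called higher and 1 lower.

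**Figure D1:**
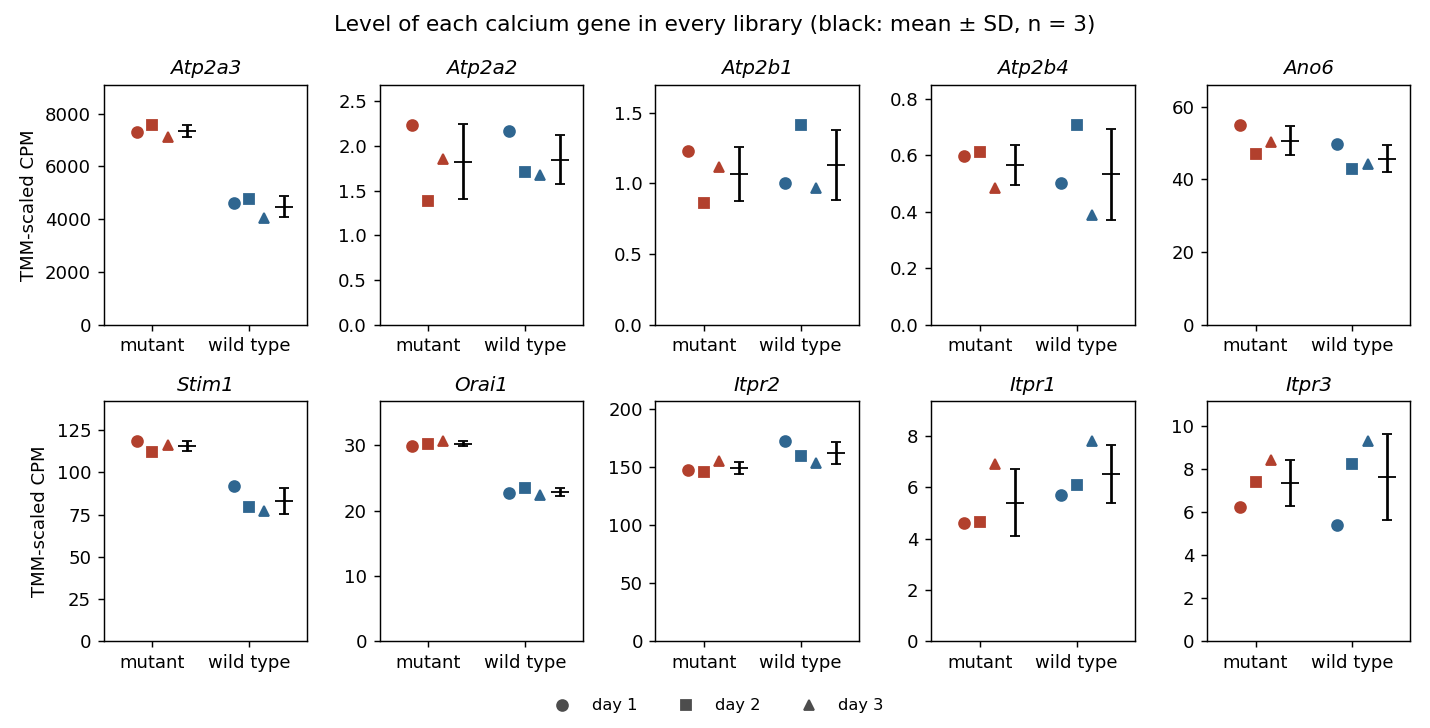
Each panel shows 1 calcium gene, with the TMM-scaled CPM of the 3 mutant and 3 wild-type libraries on a linear axis from 0, marker shapes for the preparation day, and the mean and SD in black. The mutant libraries of Atp2a3 (7126 to 7578 CPM), Stim1 and Orai1 sit above all wild-type libraries, and the genotypes overlap in the other 7 panels.

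Per unit of length, Atp2a3 stood far above the other members. It had 1587, 1645 and 1547 RPKM in the mutant libraries of days 1, 2 and 3, and 1004, 1035 and 877 RPKM in the wild-type libraries. Its mean placed it 65th of 9822 genes by RPKM and 18th by CPM, and it supplied 95.2% to 95.7% of the summed RPKM of the 10 genes in mutant and 93.4% to 94.2% in wild-type pools. Next came Stim1 at 32.01 ± 0.867 RPKM in mutant pools and 23.0 ± 2.15 RPKM in wild-type pools, Itpr2 at 17.9 ± 0.621 and 19.4 ± 1.12 RPKM, Orai1 at 16.2 ± 0.196 and 12.2 ± 0.310 RPKM, and Ano6 at 8.88 ± 0.713 and 8.0 ± 0.645 RPKM (± SD of 3 pools each). The remaining 5 genes were at 1.03 RPKM or less in every library. They ran from Itpr3 (0.820 ± 0.120 RPKM in mutant, 0.851 ± 0.224 in wild type) through Itpr1 (0.546 ± 0.132 and 0.659 ± 0.113), Atp2a2 (0.319 ± 0.0742 and 0.323 ± 0.0477) and Atp2b1 (0.150 ± 0.0267 and 0.158 ± 0.0346) to Atp2b4 (0.0680 ± 0.00858 and 0.0642 ± 0.0195 RPKM, ± SD of 3 pools each). The order was the same in both genotypes. Itpr3 and Itpr1 were the only neighbours in it whose library ranges overlapped within a genotype, and they overlapped in both.

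**Figure D2:**
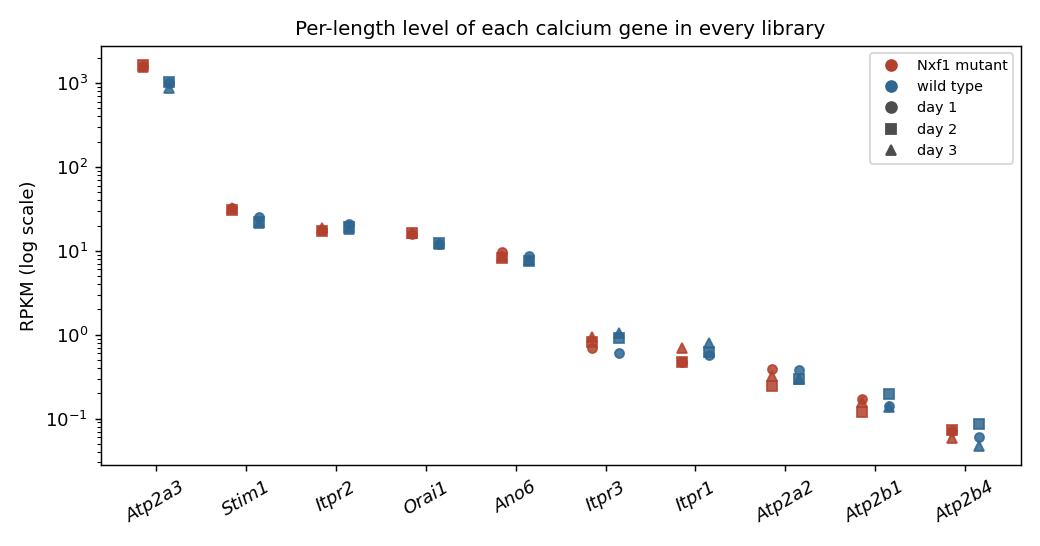
RPKM of the 10 calcium genes in each library on a log axis, ordered by the wild-type mean, with mutant libraries left of wild-type libraries and marker shapes for the preparation day. Atp2a3, at 877 to 1645 RPKM, lies far above Stim1, Itpr2, Orai1 and Ano6, and the other 5 genes lie at 1.03 RPKM or less.

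The IP3 receptors, the channels that release stored calcium, were not called in either direction. Itpr2 carried nearly all of their transcripts. Itpr2 (Entrez 16439, chromosome 6, 146108299 to 146502258, mm10) had 148, 145 and 155 CPM in the mutant libraries of days 1, 2 and 3, and 172, 160 and 154 CPM in the wild-type libraries, so the day 3 mutant pool lay above the day 3 wild-type pool and the genotypes overlapped. On the log2 scale the edgeR estimate was -0.11 with an SE of 0.11 (adjusted p = 0.508), with a 95% interval of -0.34 to 0.11. When scaling and test were restricted to the genes averaging 10 CPM or more, Itpr2 was called lower (-0.28, adjusted p = 0.0122 by edgeR, range over its 21 alternatives 0.0122 to 0.786). Itpr2 made up 93.8%, 93.1% and 91.9% of the summed IP3 receptor RPKM in mutant pools and 94.6%, 92.6% and 91.0% in wild-type libraries of days 1, 2 and 3. The means were 92.9 ± 0.956% in mutant pools and 92.7 ± 1.81% in wild-type pools (± SD of 3 pools each, two-sided exact permutation p = 0.9, where 3 against 3 cannot go below 0.1).

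Itpr1 (Entrez 16438, chromosome 6, 108213083 to 108551116) had 4.62, 4.66 and 6.90 CPM in mutant pools and 5.68, 6.07 and 7.78 CPM in wild-type libraries of days 1, 2 and 3. The mutant pool was the lower one of each day, while the ranges overlapped across days. The estimated log2 fold change was -0.27 with an SE of 0.18 (edgeR adjusted p = 0.320, 95% interval -0.65 to 0.11), and it passed narrowly once the day entered as a block (-0.27, adjusted p = 0.0495 by edgeR, range over alternatives 0.0382 to 0.736). DESeq2 with the same block did not call it (-0.28, adjusted p = 0.291). Itpr3 (Entrez 16440, chromosome 17, 27057002 to 27122223) had 6.26, 7.43 and 8.42 CPM in mutant pools and 5.41, 8.23 and 9.30 CPM in wild-type libraries of the same days, with a log2 fold change of -0.06 ± 0.18 (SE, adjusted p = 0.866 by edgeR, 95% interval -0.44 to 0.32). Both genes were highest on day 3 in each genotype. The summed B cell markers were also highest on that day, at 298, 307 and 369 CPM in mutant pools and 388, 381 and 508 CPM in wild-type libraries of days 1, 2 and 3. The summed T and NK cell markers were highest on day 3 in wild-type libraries (27.6, 30.5 and 35.1 CPM). In mutant pools they were highest on day 2 (26.3, 30.2 and 29.7 CPM). The part of B, T or NK cell RNA in the Itpr1 and Itpr3 values was not tested.

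The store sensor gene Stim1 and the channel gene Orai1 both rose in mutant platelets. Stim1 (Entrez 20866, chromosome 7, 102261514 to 102437319, mm10) had 118, 112 and 116 CPM in the mutant libraries of days 1, 2 and 3, and 91.8, 79.7 and 77.4 CPM in the wild-type libraries. The lowest mutant library was above the highest wild-type library. edgeR put the log2 fold change at 0.48 with an SE of 0.11 (1.39-fold, adjusted p = 0.00409), and the ratios within days 1, 2 and 3 were 0.37, 0.49 and 0.58 on the log2 scale.

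Orai1 (Entrez 109305, chromosome 5, 123015074 to 123030452, mm10) had 29.9, 30.2 and 30.6 CPM in the mutant and 22.7, 23.5 and 22.3 CPM in the wild-type libraries of days 1, 2 and 3. All mutant libraries lay above all wild-type libraries, and the spread within a genotype was small. On the log2 scale the edgeR estimate was 0.40 with an SE of 0.11 (1.32-fold, adjusted p = 0.0107), with 0.39, 0.36 and 0.45 within days. The RPKM ratio of Stim1 to Orai1 was 1.98 ± 0.0665 in mutant pools and 1.88 ± 0.185 in wild-type pools, and that of Stim1 to Itpr2 was 1.79 ± 0.0622 in mutant pools and 1.18 ± 0.0440 in wild-type pools (± SD of 3 pools each). Of 9 refits by edgeR, each without 1 library or day, the call was lost in 4 for Stim1 (mutant replicate 1, wild-type replicate 2, day 1, day 2, highest adjusted p = 0.160) and in 6 for Orai1 (mutant replicates 1 and 2, wild-type replicates 1 and 2, day 1, day 2, highest adjusted p = 0.201), and log2 fold changes over the 9 were 0.41 to 0.52 for Stim1 and 0.36 to 0.39 for Orai1. Those refits held no block for the day. With all libraries and the day as a block, a fit that called 40.0% of all genes, edgeR called both genes. Stim1 was then at 0.48 (adjusted p = 1.5e-11 by edgeR) and Orai1 at 0.40 (adjusted p = 5.95e-07 by edgeR). Restricted to genes averaging 10 CPM or more, the log2 fold changes were 0.31 for Stim1 and 0.23 for Orai1, and both were called. Orai1 also missed the threshold with library size alone (0.32, adjusted p = 0.0682 by edgeR, range over alternatives 2.56e-10 to 0.201).

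The intracellular pump gene Atp2a3 had the largest rise of the 10. Atp2a3 (Entrez 53313, chromosome 11, 72961169 to 72993043, mm10) encodes SERCA3, which refills stores and is abundant in blood cells. It had 7308, 7578 and 7126 CPM in the mutant and 4623, 4769 and 4038 CPM in the wild-type libraries of days 1, 2 and 3. Every mutant library was above every wild-type library, as was the case for the summed platelet markers given above. The single markers were mixed, with 5 of the 12 called higher, 5 not called and 2 lower. The lower ones were Gp1ba (log2 fold change -1.08, adjusted p = 7.28e-07 by edgeR) and Gp9 (-0.40, adjusted p = 0.0186 by edgeR). The part of platelet content in the Atp2a3 difference was not tested. For Atp2a3 the estimated log2 fold change was 0.71 with an SE of 0.12 (1.64-fold, edgeR adjusted p = 0.000172), the ratios within days were 0.66, 0.67 and 0.82, and the gene was called in all 21 alternatives. Its share of the deposited counts was 0.666%, 0.728% and 0.749% in mutant pools and 0.443%, 0.455% and 0.479% in wild-type libraries of days 1, 2 and 3. The broadly expressed SERCA2 gene Atp2a2 (Entrez 11938, chromosome 5, 122453513 to 122502225) had 2.24, 1.39 and 1.85 CPM in mutant pools and 2.16, 1.70 and 1.68 CPM in wild-type libraries, so the genotypes overlapped (log2 fold change -0.01 ± 0.23, SE, adjusted p = 0.980 by edgeR, 95% interval -0.49 to 0.47). Atp2a3 supplied 99.98% of the SERCA2 and SERCA3 RPKM in mutant pools and 99.97% in wild-type pools (exact permutation p = 0.1, the smallest 3 against 3 allows). As Atp2a2 was not called, this share restates the rise of Atp2a3 and is not a separate result. The SERCA1 gene Atp2a1 is not a member and was left out of this share. It averaged 3.68 RPKM in mutant pools and 2.08 RPKM in wild-type pools, above Atp2a2 in both. The summed RPKM of all 10 genes was 1670 ± 47.5 in mutant pools and 1037 ± 85.9 in wild-type pools (± SD of 3 pools each, exact permutation p = 0.1). That sum follows Atp2a3, since the other 9 genes together had 74.6 to 78.1 RPKM in mutant pools and 61.9 to 68.7 RPKM in wild-type libraries.

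The plasma membrane pump genes were near the lower limit of the tables. Atp2b1 (PMCA1, Entrez 67972, chromosome 10, 98914630 to 99026143) had 33, 21 and 30 reads in the mutant and 26, 34 and 30 reads in the wild-type libraries of days 1, 2 and 3. Atp2b4 (PMCA4, Entrez 381290, chromosome 1, 133702674 to 133801059) had 16, 15 and 13 reads in mutant and 13, 17 and 12 reads in wild-type libraries. Every gene in the tables exceeded 0.5 CPM of the unscaled totals in at least 3 libraries, and Atp2b4 did so in 4. The log2 fold changes were -0.06 ± 0.27 for Atp2b1 (SE, adjusted p = 0.894 by edgeR, 95% interval -0.62 to 0.49) and 0.10 ± 0.34 for Atp2b4 (SE, adjusted p = 0.866 by edgeR, 95% interval -0.60 to 0.81), and both intervals include the difference of 0.48 seen for Stim1. Atp2b4 made up 29.4%, 38.0% and 27.1% of their summed RPKM in mutant pools and 30.1%, 30.1% and 25.6% in wild-type libraries (exact permutation p = 0.6).

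Ano6 (Entrez 105722, chromosome 15, 95790843 to 95975472), the scramblase gene, had 55.0, 46.9 and 50.2 CPM in the mutant and 49.9, 42.9 and 44.3 CPM in the wild-type libraries of days 1, 2 and 3. It was higher in the mutant within every day, by 0.14, 0.13 and 0.18 on the log2 scale, and overlapped across days. The log2 fold change of 0.15 ± 0.12 (SE) did not pass (adjusted p = 0.399 by edgeR, 95% interval -0.09 to 0.39), and it passed only with the day as a block together with a correction for gene length (0.15, adjusted p = 0.0393 by edgeR, range over alternatives 0.0393 to 0.901). With scaling and test restricted to genes averaging 10 CPM or more, the sign reversed (-0.019, adjusted p = 0.885 by edgeR). With library size alone the value was 0.07 (adjusted p = 0.718 by edgeR). Ano6 overlaps A130051J06Rik, which held 0.869 CPM in mutant pools and 0.684 CPM in wild-type pools, and because the library kit does not mark strand, reads of the overlap cannot be assigned with certainty.

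**Figure D3:**
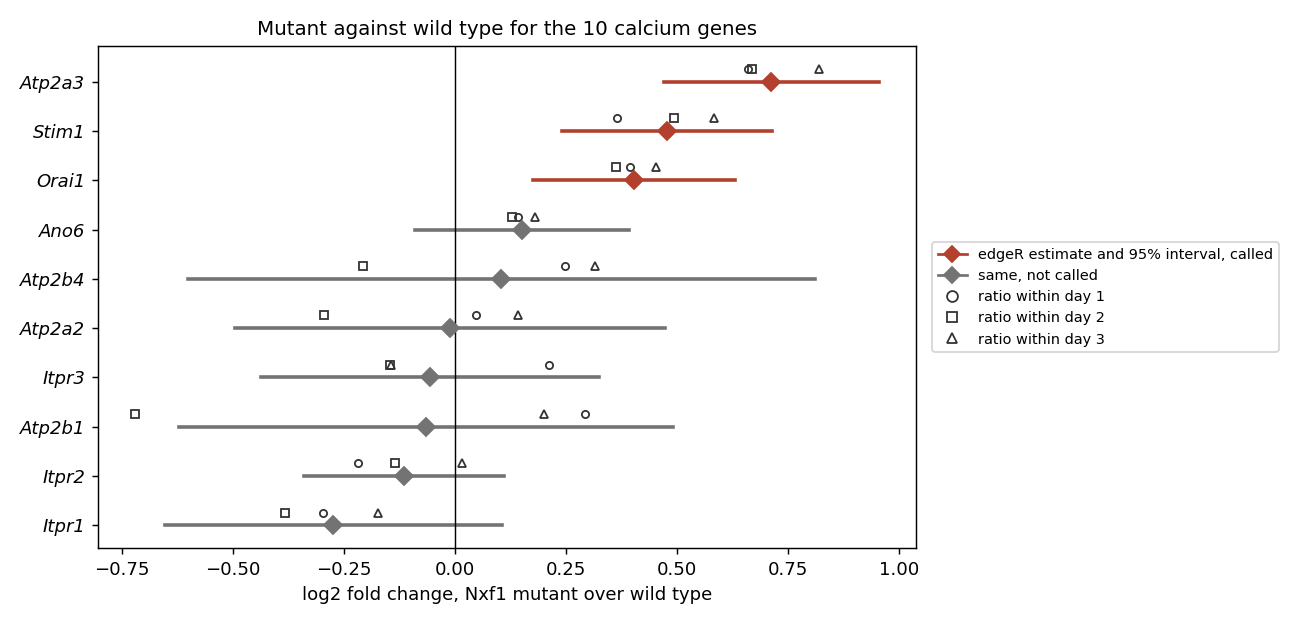
Log2 fold change of each calcium gene, mutant over wild type, as the edgeR estimate with its 95% interval (diamonds and lines, red where called) and as the ratio within each preparation day (open symbols above each line). Atp2a3, Stim1 and Orai1 lie right of 0 with all day ratios, and the intervals of the other 7 genes include 0.

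The promoters of the 3 genes that rose are shown with that of Itpr2, whose level lay between those of Stim1 and Orai1 and which was not called, to set their sequence features side by side. Each runs from 250 bases before to 50 after the transcription start in RefSeq for GRCm38.p6, the assembly of mm10, and RefSeq promoters were found for 8 of the 10 genes. The Stim1 window, 102267569 to 102267868, lies wholly inside the Stim1 locus given above, which starts at 102261514. It is therefore not at the outer end of that locus. Capitals mark matches on either strand to GATAA, the core bound by GATA factors, CGGAAG, a core bound by ETS factors, and GGGCGG, the GC box, and adjacent or overlapping matches merge.
Atp2a3, chr11:72960919-72961218, + strand: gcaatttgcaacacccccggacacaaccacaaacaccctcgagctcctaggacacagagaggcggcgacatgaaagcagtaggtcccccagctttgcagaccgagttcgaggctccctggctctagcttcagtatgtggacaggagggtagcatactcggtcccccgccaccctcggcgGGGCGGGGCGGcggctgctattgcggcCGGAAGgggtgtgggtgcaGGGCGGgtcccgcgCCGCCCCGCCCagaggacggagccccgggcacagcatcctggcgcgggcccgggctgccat
Stim1, chr7:102267569-102267868, + strand: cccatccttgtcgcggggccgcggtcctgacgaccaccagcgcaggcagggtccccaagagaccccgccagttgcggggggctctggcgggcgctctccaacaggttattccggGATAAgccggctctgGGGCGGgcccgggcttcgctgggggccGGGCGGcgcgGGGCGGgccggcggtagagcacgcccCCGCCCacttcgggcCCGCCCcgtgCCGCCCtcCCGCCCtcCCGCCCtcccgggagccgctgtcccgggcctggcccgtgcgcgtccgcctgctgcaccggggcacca
Orai1, chr5:123014824-123015123, + strand: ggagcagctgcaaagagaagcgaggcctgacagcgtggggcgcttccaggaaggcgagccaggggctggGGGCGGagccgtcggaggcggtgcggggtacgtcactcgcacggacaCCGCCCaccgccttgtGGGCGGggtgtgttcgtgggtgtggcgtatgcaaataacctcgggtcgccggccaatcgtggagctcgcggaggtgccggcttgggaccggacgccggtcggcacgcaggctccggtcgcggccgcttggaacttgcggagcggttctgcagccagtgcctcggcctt
Itpr2, chr6:146502174-146502473, - strand: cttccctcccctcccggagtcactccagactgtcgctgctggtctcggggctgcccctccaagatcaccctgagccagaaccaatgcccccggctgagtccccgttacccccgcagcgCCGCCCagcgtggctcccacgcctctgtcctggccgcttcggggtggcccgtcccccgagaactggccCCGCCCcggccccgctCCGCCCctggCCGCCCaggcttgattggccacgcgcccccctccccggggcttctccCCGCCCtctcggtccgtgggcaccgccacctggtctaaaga

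Matches to the GC box numbered 5 in Atp2a3, 8 in Stim1, 3 in Orai1 and 5 in Itpr2, and 62.6% of the 9753 promoters of tested genes held at least 1. Among these 4, the ETS core was found once, in Atp2a3, and in 32.3% of promoters of tested genes. The GATA core was found once, in Stim1, and in 16.4% of those promoters. TATAAA, the core of the TATA box, was in none of the 4 windows, and in 7.2% of promoters of tested genes. GC content was 68.3% for Atp2a3, 78.7% for Stim1, 70.3% for Orai1 and 73.3% for Itpr2. The median over all 32851 RefSeq promoters, which include those of genes not tested here, was 52.7%. Of all these promoters 35.7% held a GC box, a smaller share than among tested genes. A median GC content over tested genes alone was not computed, so these 4 values are not set against a like background.

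Of the 20 nearest tested neighbours of the 10 genes, 4 were higher and 1 lower, or 25%, beside 22.1% of all genes. Both neighbours of Atp2a3 on chromosome 11 were among the higher ones. P2rx1, the gene of the ATP-gated calcium entry channel of platelets, begins 6012 bases beyond the end of Atp2a3, and Camkk1, a kinase gene of the calmodulin pathway, lies 22999 bases away. P2rx1 averaged 813 CPM in mutant pools and 603 CPM in wild-type pools (log2 fold change 0.43, adjusted p = 0.0104 by edgeR, called in 4 of the 9 refits without 1 library or day), and was named after its values were seen. Camkk1 averaged 8.15 CPM in mutant pools and 4.44 CPM in wild-type pools (log2 fold change 0.88, adjusted p = 0.000207 by edgeR). The RPKM ratio of Atp2a3 to P2rx1 was 4.78 ± 0.0795 in mutant pools and 3.94 ± 0.0737 in wild-type pools (± SD of 3 pools each). The closest tested neighbours of Stim1 (Rrm1 and Rhog) and of Orai1 (Kdm2b and Gm6444) were not called, with log2 fold changes of -0.07 to 0.03. The other called neighbours lay beside genes that were not called, namely Bak1 by Itpr3 (0.75, adjusted p = 0.000248 by edgeR), D030018L15Rik by Ano6 (1.13, adjusted p = 0.00792 by edgeR) and Rpl36-ps12 by Itpr1 (-0.40, adjusted p = 0.0361 by edgeR).

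Over the 6 libraries, the genes whose log2 CPM followed Atp2a3 most closely were a gene without a name in the RefSeq table, Ripor3 and 4931406C07Rik, each with a Pearson r of 0.999, among 3016 other genes averaging 10 CPM or more. These points share the difference between genotypes, and 537 of the 3016 genes had r above 0.95, so the order among them is a description.

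Outside the 10 genes, the calcium pathway was described by lists of other genes in each role, chosen with earlier results of these data known. Their counts of calls stand beside the 12.9% higher and 9.16% lower among all genes, and their medians beside -0.04. These backgrounds are not matched for level. Restricted to the 3017 genes averaging 10 CPM or more, 723 were higher and 755 lower, a larger share in both directions. Over the alternatives, log2 fold changes were 0.26 to 0.47 for Nptn, 0.27 to 0.46 for P2rx1 and 0.30 to 0.48 for Mrvi1. Among the genes that make or remove IP3, Plcb1, a phospholipase C gene, fell to 15.5 to 16.8 CPM in mutant libraries, against 41.0 to 49.6 CPM in wild-type libraries (log2 fold change -1.52). Itpkb, which phosphorylates IP3, rose by 0.90 on the log2 scale and Inpp5a, which dephosphorylates it, by 0.68. These were the 2 higher and 1 lower of 8 tested (12 listed). The median of the list was -0.03.

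Partners of store release and channels of other stores had 5 higher and 0 lower of 10 tested (17 listed), with a median log2 fold change of 0.37. Grina (0.84), Tmco1 (0.84), an endoplasmic reticulum channel that opens on calcium overload, Tmbim6 (0.51) and the endolysosomal channel gene Tpcn1 (0.47) rose. Mrvi1, which encodes the IP3 receptor partner that mediates inhibition by cGMP kinase, was the fifth, at 800 CPM in mutant pools and 581 CPM in wild-type pools (0.46, adjusted p = 0.00534 by edgeR), and was named after its values were seen. The ryanodine receptor genes Ryr1, Ryr2 and Ryr3 were among those listed and had no row among the genes tested.

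Entry channels and their partners had 5 higher and 0 lower of 11 tested (18 listed), with a median of 0.43. The Orai paralogs Orai2 (0.60) and Orai3 (0.59), Trpc1 (0.52) and Saraf (0.49), which encodes an inhibitor of STIM1, rose, beside P2rx1. Stim2, the second store sensor gene, was not called (log2 fold change 0.50, adjusted p = 0.0553 by edgeR, range over alternatives 4.15e-05 to 0.252), and was named after its values were seen.

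The remaining pumps, exchangers and pump subunits had 5 higher and 0 lower of 7 tested (18 listed), with a median of 0.50. Slc24a3, a sodium, potassium and calcium exchanger gene, rose to 167 to 172 CPM in mutant libraries, against 94.3 to 114 CPM in wild-type libraries (0.71). Atp2a1, the SERCA1 gene, rose by 0.83, Bsg by 0.56 and Slc24a5 by 0.50. Nptn, which like Bsg encodes a subunit of PMCA pumps, was the fifth, at 3828 CPM in mutant pools and 2850 CPM in wild-type pools (0.43, adjusted p = 0.0134 by edgeR), named after its values were seen.

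Mitochondrial calcium genes had 5 higher and 0 lower of 11 tested (14 listed), with a median of 0.29. Micu2, a gatekeeper of the uniporter (0.71), Slc25a24 (0.65), the outer membrane channel gene Vdac3 (0.61) and Mcur1 (0.38) rose, as did Smdt1 (0.42, named after its values were seen). Of 12 tested calcium-binding proteins of the endoplasmic reticulum (14 listed), Calu rose (0.67) and 11 were not called. Of 16 calmodulin and calcineurin genes 3 rose and 2 fell. Camk1 (0.96), Camkk1 and Camk2g (0.71, named after its values were seen) were higher, and Camk2d (-1.09) and the calcineurin catalytic subunit gene Ppp3ca (-0.59) were lower. Of 11 other scramblase, flippase and anoctamin genes tested (22 listed), the flippase gene Atp8a1 (0.53) and Tmem30a (0.51), which encodes the flippase beta subunit, rose and 9 were not called.

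With the preparation day as a block, edgeR called 22.0% of all genes higher and 18.0% lower. The number of genes called in either direction then moved by more than 1.5 times for 4 of the 8 lists of other calcium pathway genes. The counts were 7 higher and 2 lower for mitochondrial genes and 5 and 0 for the calcium-binding proteins. They were 5 and 4 for calmodulin and calcineurin genes, and 4 and 1 for the other scramblase, flippase and anoctamin genes. Entry channels and partners had 6 higher and 1 lower with the block, and so did the other pumps, exchangers and pump subunits. Without the block, neither of these lists had a gene called lower. In the 9 edgeR refits, each without 1 library or day, Tmbim6, Tpcn1, Mrvi1, Saraf and Slc24a5 lost the call in 4, Mcur1 and Nptn in 5, Smdt1 in 6, Trpc1 and Tmem30a in 3, Orai3, Bsg and Atp8a1 in 2, and Orai2 and Camk2g in 1. Smdt1 also lost the call with RLE scaling (adjusted p = 0.0555 by edgeR), among genes averaging 10 CPM or more (0.0629) and without the 10 most abundant genes (0.0628), so that it was not called in 9 of 21 alternatives (adjusted p 1.03e-29 to 0.269). Orai3 lost it with library size alone (adjusted p = 0.0932 by edgeR, range 7.12e-08 to 0.129, not called in 3 of 20 alternatives). Mcur1 lost it without the 10 most abundant genes (adjusted p = 0.0555 by edgeR, range 7.42e-12 to 0.296, not called in 6 of 21).

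**Figure D4:**
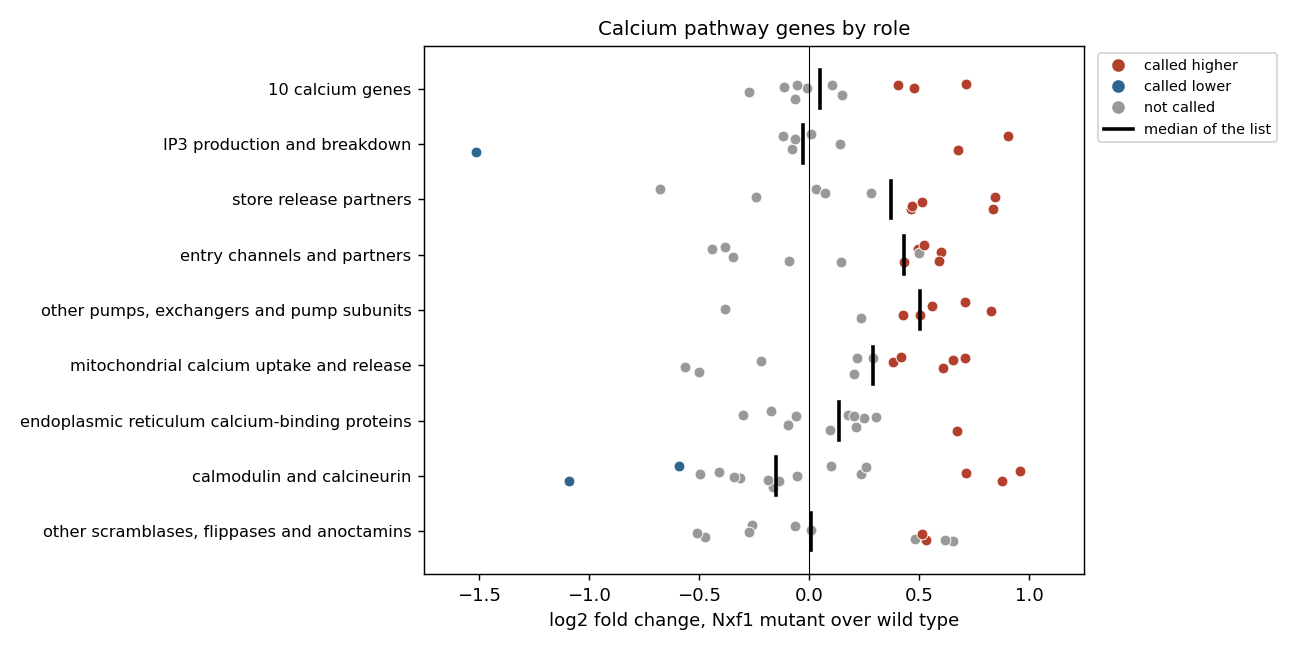
Log2 fold change, mutant over wild type, of every tested gene of the 10 calcium genes and of each list of other calcium pathway genes, with points spread vertically for visibility, red for genes called higher, blue for genes called lower and a black bar for the list median. Medians run from -0.15 for calmodulin and calcineurin genes to 0.50 for other pumps, exchangers and pump subunits, and Plcb1 is the lowest point at -1.52.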

How the data were processed

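PolyA RNA of 6 platelet pools was sequenced with a kit that does not mark strand. Each deposited table lists whole-number counts by Entrez gene beside the length of the gene, per the file headers. The submitters' processing notes name CASAVA 1.8.2, Subread, featureCounts and mm10, and the sources used here say nothing of settings or strand. RefSeq (GRCm38.p6, the assembly of mm10) named 9636 of the 9822 identifiers.

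The main test was edgeR 4.0.16 (R 4.3.3) on TMM-scaled counts, a robust quasi-likelihood fit of genotype alone, two-sided, with Benjamini-Hochberg adjustment over all genes at 0.05. The SE is the size of the log2 fold change over the square root of F. CPM use TMM-scaled totals, and RPKM is that CPM per 1000 bases of the deposited length. Family shares were compared by exact permutation over libraries. The p-values measure the spread between pools, whose animals are not identified. Alternatives changed the scaling, the tool (DESeq2 1.42.0, or limma-voom with limma 3.58.1), the minimum mean level (1 or 10 CPM), the 10 most abundant genes, gene length (loess offsets, span 0.5), the day as a block, and each library or day.

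The members and lists were chosen with earlier results of these data known. The genes named were the 10 members, up to 4 called genes with the smallest p per list, the 3 genes most like the called member with the smallest p, and Nxf1. Outside this rule, P2rx1, Mrvi1, Nptn, Smdt1, Camk2g, Stim2, the genomic neighbours and the single markers of platelets and other cells were named after values were seen. The batch label marks the preparation day and pairs the libraries. Across genes, deviations from the group means had correlations of 0.520 (day 1), 0.350 (day 2) and 0.547 (day 3) between same-day pools, and -0.0358 or lower between pools of different days. Deviations from a mean of 3 pools cancel within a genotype, so the negative values between days partly follow from this centring. Libraries of a group differed beyond sampling noise (mean chi-square per gene at least 14.5).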

Additional observations from a re-analysis of the deposited data

How the results depend on the processing

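Atp2a3 was called higher in all 21 alternatives (log2 fold change 0.55 to 0.73, adjusted p 9.38e-44 to 0.0221 by edgeR, DESeq2 or limma-voom). Stim1 was called in 17 of 21 and Orai1 in 14 of 21, and neither changed direction. Restricting scaling and test to genes averaging 10 CPM or more gave 0.31 for Stim1, 0.23 for Orai1 and -0.019 for Ano6. There 723 genes were higher and 755 lower, against 1266 and 900 among all genes, and 1 member, Itpr2, was called lower. The replicate block by preparation day gave 3929 genes called by edgeR (2164 higher, 1765 lower) and 1 member lower, Itpr1, which DESeq2 with the block did not call. The replicate block with gene length offsets gave 4071 (2475 higher, 1596 lower), with 5 members called, 1 of them lower. Neither blocked fit, nor DESeq2 with the block, ended a call of a named gene. Without day 1, 2 or 3, the genes called by edgeR numbered 1192, 1005 and 2396, of them 585, 485 and 1388 higher, and 520 to 1008 were lower. Without 1 mutant library 1382 to 2276 were called (654 to 1291 higher, 728 to 985 lower), and without 1 wild-type library 1705 to 2069 (903 to 1094 higher). Members called were 1 to 3 in each of these, all higher. Values that were not called changed sign there. Without 1 day, the log2 fold change was -0.18 to 0.018 for Itpr3, -0.094 to 0.054 for Atp2a2, -0.29 to 0.21 for Atp2b1 and -0.0047 to 0.25 for Atp2b4. Without 1 mutant library it was -0.16 to 0.0075 for Itpr3, -0.23 to 0.10 for Atp2a2, -0.22 to 0.019 for Atp2b1, -0.0013 to 0.21 for Atp2b4 and -0.43 to -0.093 for Nxf1. Without 1 wild-type library it was -0.29 to 0.11 for Itpr3, -0.10 to 0.076 for Atp2a2, -0.18 to 0.078 for Atp2b1, -0.097 to 0.31 for Atp2b4 and -0.35 to 0.077 for Nxf1. The Itpr2 share differed by -0.232 to 0.717 percentage points without 1 mutant library and by -0.658 to 1.14 without 1 wild-type library, and the Atp2b4 share by -0.290 to 5.16 without 1 mutant library. The cause of these changes was not tested. With 3 pairs, exact sign flips of the family shares cannot go below p = 0.25. Read depth limits Atp2b1 and Atp2b4, at 12 to 34 reads per library.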
